A study of Homo sapiens with 2 samples.

Results

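The 17 peaks that the list assigned to POTEC lay on chromosome 18, close to the centromere, and were selected on the gene name given to them by the peak annotation. The other 351 peaks of the list carried the names of other genes. The cells were of the ovarian cancer line A2780 and carried an introduced USP39 with a FLAG tag. The RIP library held RNA pulled down through that tag, and the input library held RNA without this step. There was 1 library of each kind, without replicates. The list gave positions, region classes and gene names, and columns for transcript and type. It held no read count, enrichment or strand, so depth was unknown and every value here is a description without a test. The identity of the cells could not be checked against marker genes, because the list holds no expression values.

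POTEC belongs to the POTE family of genes, which encode proteins with ankyrin repeats and lie in primate-specific duplicated DNA near the centromeres of several chromosomes. Family members are known for expression in prostate, ovary, testis and placenta. USP39 is a protein of the spliceosome, which removes introns from pre-mRNA. A short read from one duplicated copy can match another copy equally well, so the place given to a peak in such DNA depends on how the aligner treats reads with several matches.

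Peak 482, the POTEC peak that the list classed as exon, held all of exon 5 of the main POTEC transcript, 138 bases long, with both splice sites. The exon belonged to all 4 annotated POTEC transcripts. This peak had 4 copies, in POTED, in POTEB2, in POTEB and on the unplaced contig GL000213.1, with identity from 99.0% to 99.5%.

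The list classed 15 POTEC peaks as Intergenic, 1 as exon and 1 as downstream. Over the whole list 10.6% of peaks were Intergenic, and the peaks of other genes included 24. None of the POTEC peaks was classed as intron, although introns were the most frequent class among other genes, with 161 peaks. POTEC is transcribed from the reverse strand and spans 36262 bp in the GENCODE annotation. The 15 Intergenic peaks therefore lay upstream of its start site, from 6042 to 41111 bp away, and no POTEC peak lay past its annotated 3′ end. The downstream peak, peak 481, was entirely within the last annotated exon, in the 3′ untranslated region, and its edge nearest the gene end was 2823 bp inside it. The region class in the list therefore differed from the GENCODE gene model for this peak.

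**Figure D1:**
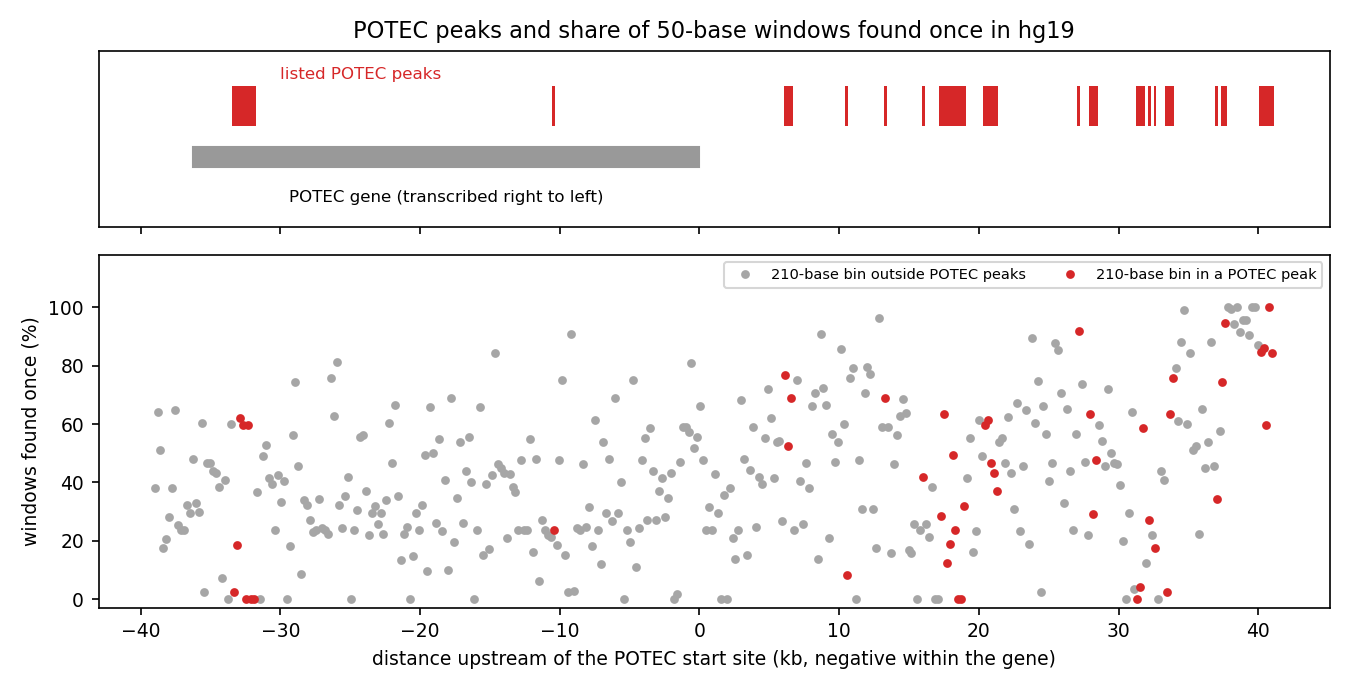
Position of the 17 POTEC peaks (top) and share of 50-base windows found once in hg19 for each 210-base bin (bottom, percent), against distance from the POTEC start site in kb. Of the peaks, 15 lie to the right of the start site, and bins in peaks and bins between them cover a similar range of shares.

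All 31 listed peaks on chromosome 18 started on the same grid of 210-base bins. Of the POTEC peaks 8 were a single bin wide and 9 were wider, up to 1890 bp, with a median of 420 bp. The median for peaks of other genes, most of them on other chromosomes, was 410 bp. The grid was checked on chromosome 18 only. The POTED peak on chromosome 21, 615 bp wide, was not a whole number of 210-base bins. The Intergenic peaks covered 8400 bp of a stretch of 35070 bp. Gaps between neighbouring Intergenic peaks ranged from 210 to 5670 bp, and 3 of the 14 gaps were a single bin. Joining gaps of up to 1000 bp left 12 clusters among the 17 peaks, and joining gaps of up to 5000 bp left 4. The exon peak and the first Intergenic peak were 16380 bp apart, and the exon peak and the downstream peak 21210 bp apart. The distance from the last POTEC peak to the next run of unknown bases, which is 3100000 bp long and holds the centromere, was 826188 bp.

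The peaks next to the named set showed where the gene name changed. Peak 480, classed as Intergenic and given to CXADRP3, ended 4620 bp before the first POTEC peak. It was 1798 bp from the annotated 3′ end of POTEC and 5214 bp from CXADRP3. Like most POTEC peaks it was repeated, with 4 copies, the closest 98.4% identical on contig GL000213.1, and with 36.1% of 50-base windows found once. On the other side the next listed peak of the chromosome belonged to TCF4, 38.3 Mb away.

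A copy was counted where another place in hg19 matched at least 80% of a peak with at least 95% identity. Of the 17 POTEC peaks 16 had a copy, against 13.6% of all listed peaks and 34 of the 351 peaks of other genes, peak 480 and the POTED peak among them. At 98% identity the POTEC count was 10, and the count over the whole list fell from 50 to 29. The gene name was the basis of selection, and these counts were read as a description of its neighbourhood. The peak without a copy was peak 496, whose closest place, on chromosome 14, was 92.2% identical. No single-bin POTEC peak lacked a copy.

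Places were also counted with blastn at a weaker limit, at least 85% identity over at least 80% of a peak. For the 14 peaks with at most 20 such places in the genome, 29 of the 36 copies that blastn found lay in blocks that held copies of several peaks. The block with the most copies was on chromosome 21, upstream of and within POTED, where 15 of the 17 POTEC peaks had a copy with identity from 96.2% to 99.5%. Contig GL000213.1, of 164239 bp, held copies of 8 peaks with a median identity of 98.8%. The annotation used here covers no unplaced contig, so genes on it were not examined. Chromosome 14 held copies of 5 peaks, and weaker places brought its count to 9, in a block 261500 bp from POTEG. The blocks at POTEB2 and POTEB on chromosome 15 each held copies of the same 3 peaks. Peaks 496 and 497, the farthest from POTEC, were matched in the chromosome 14 block and not in the POTED block.

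**Figure D2:**
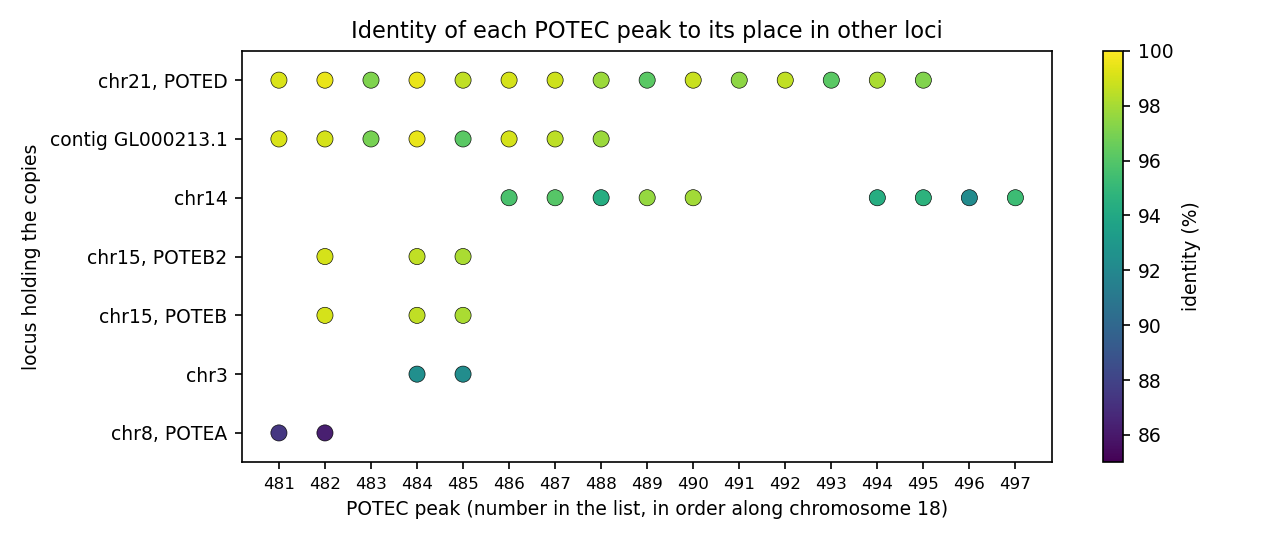
Identity (percent, colour) of each POTEC peak, in order along chromosome 18, to its place in each block of copies with at least 85% identity. The chromosome 21 row holds 15 of the 17 peaks, and the chromosome 14 row holds the last ones.

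The order of the 12 peaks with few places was kept on chromosome 21. The other 3, peaks 487, 491 and 493, were kept only within 2000 bp of where the nearest of those peaks put them. That limit narrowed their position in the order without fixing it. The 2 peaks within POTEC had copies within POTED, and the 13 Intergenic peaks with a copy there had it upstream of POTED. Peak 484 was 10452 bp from the POTEC start, and its copy was 10471 bp from the POTED start. From peak 483 to peak 488 the distances differed by 11 to 48 bp, and from peak 489 on they differed by 500 to 535 bp. The change in length between the chromosomes therefore fell between peaks 488 and 489.

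**Figure D3:**
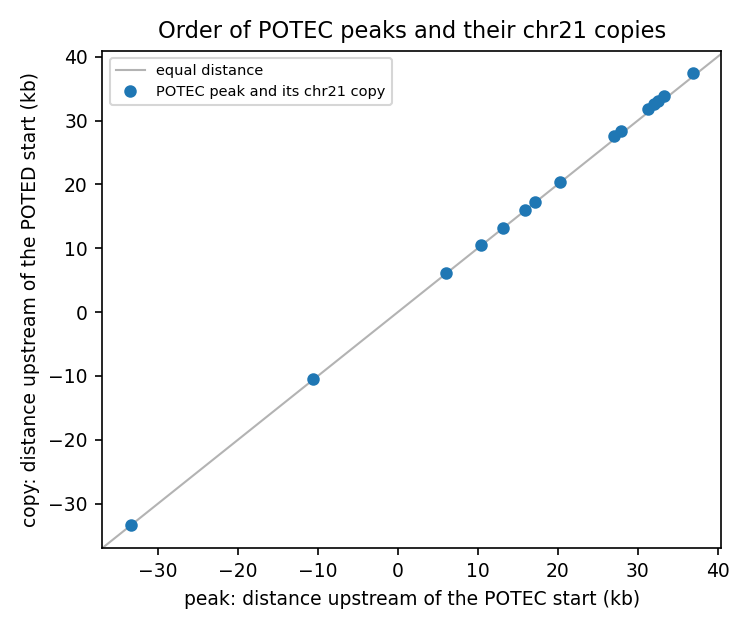
Distance of each of the 15 POTEC peaks with a copy on chromosome 21 from the POTEC start site (kb) against the distance of its copy from the POTED start (kb), negative within the gene. The points follow the line of equal distance, with differences of at most 535 bp. Peaks 487, 491 and 493 were placed with the help of their neighbours.

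The annotation names 16 genes whose symbols begin with POTE, 13 of them protein-coding. POTEC and POTED had listed peaks, and the other 14 had none. POTE genes at the copies were looked up for the 14 POTEC peaks with at most 20 places at 85% identity. This leaves out peaks 487, 491 and 493. Copies of these 14 peaks with at least 95% identity lay within POTED, POTEB, POTEB2 and POTEB3. POTEB and POTEB3 overlap on chromosome 15, and the same copy of peak 482 lay in both. Their places with at least 85% identity lay within POTEA, POTEE, POTEF, POTEG, POTEH, POTEI, POTEJ, POTEM, the pseudogene POTEKP and the antisense gene POTEH-AS1. Other genes that held copies found by minimap2 or in the blocks, with peaks 491 and 493 looked up only at their places in the blocks, were the olfactory receptor pseudogenes OR4K12P on chromosome 21 and OR4K6P on chromosome 14, the olfactory receptor gene OR4N2 on chromosome 14, and the long non-coding RNA gene LINC01674 on chromosome 21.

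On chromosome 18 itself 4 POTEC peaks overlapped an annotated gene. The exon and downstream peaks were in POTEC, and peaks 489 and 490 overlapped the pseudogene OR4K7P by 8 and 307 bp. With pseudogenes left out the count was 2, and it was also 2 where at least 50% of a peak had to overlap. The remaining 13 peaks overlapped no annotated gene. The same overlap was not counted over all listed peaks, so these counts have no background beside them. Annotated repeats were not examined.

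The single POTED peak of the list was also Intergenic and lay 27758 bp upstream of POTED, at chr21:14953726-14954340. Its place on chromosome 18 was 98.9% identical and fell between POTEC peaks 489 and 490. It covered 592 of the 630 bp between them, overlapped peak 489 by 22 bp and ended 38 bp short of peak 490. It also covered 600 of the 945 bp of OR4K7P. Of the 14 POTEC peaks with few places in the genome, none had another listed peak on a copy except peak 489. The shared bases are printed because they are the point where the peaks of both genes meet. They are at chr18:14570829-14570850 on the forward strand and chr21:14954318-14954339 on the reverse strand, with no difference.

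POTEC peak 489, last bases: gagtctgcagatgaatggaggg
POTED peak, same bases: gagtctgcagatgaatggaggg

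**Figure D4:**
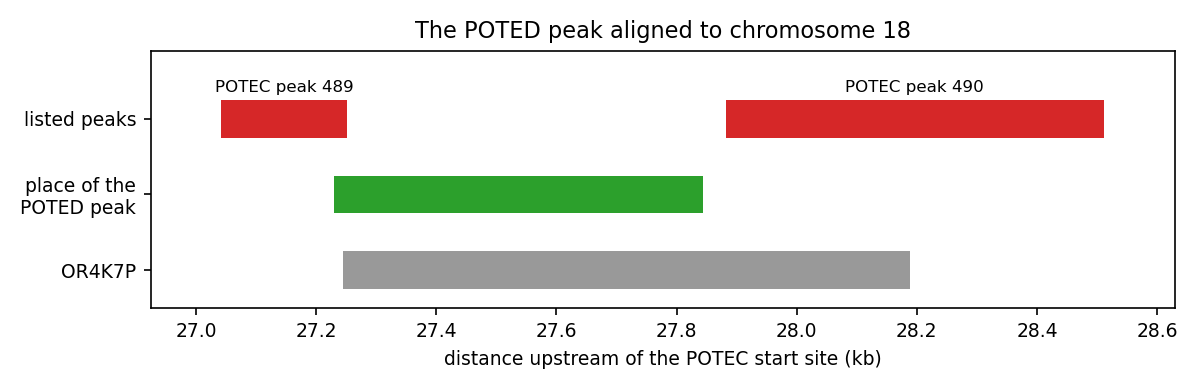
POTEC peaks 489 and 490 (red), the place of the POTED peak on chromosome 18 (green) and the pseudogene OR4K7P (grey), against distance upstream of the POTEC start site in kb. The POTED peak fills 592 of the 630 bp between the POTEC peaks.

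How much of each peak occurs at a single position was measured with exactly matching windows of 50 bases, counted on both strands of the genome. The window length was not taken from the reads. In the median POTEC peak 44.1% of windows were found once, and for peaks of other genes the median was 100%. Of the POTEC peaks 12 had under 50% of windows found once, against 9.24% of all listed peaks and 22 peaks of other genes. No POTEC peak consisted entirely of windows found once, while 252 peaks of other genes did. The share was lowest in peak 492, at 4.97%, and highest in peak 489, at 89.4%. Peaks 496 and 497 followed with 82.5% and 82.1%. The exon peak had 31.1% and the downstream peak 26.0%. With windows of 100 bases the POTEC median was 75.3%.

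**Figure D5:**
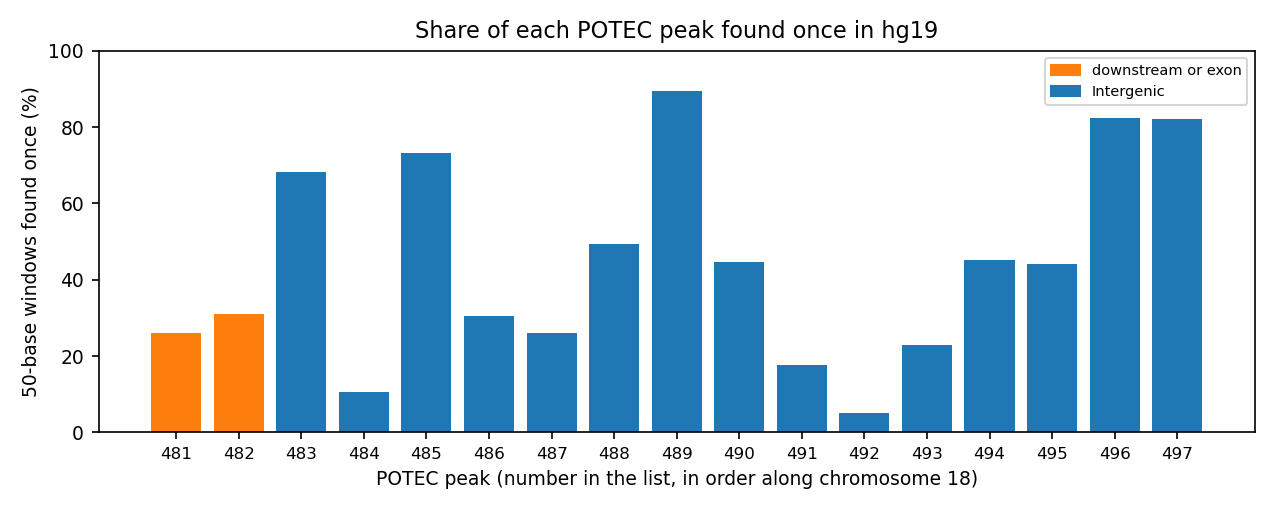
Share of 50-base windows found once in hg19 (percent) for each POTEC peak, with the downstream and exon peaks in orange and Intergenic peaks in blue. Bars range from 4.97% for peak 492 to 89.4% for peak 489.

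The stretch around the Intergenic peaks was repeated to a similar degree where no peak was listed. The 40 bins inside Intergenic peaks had a median of 48.6% of windows found once, with quartiles of 26.3% and 69.0%. The 127 bins between them had a median of 53.8%, with quartiles of 31.0% and 70.5%. Whether repeated sequence had a part in where peaks were called was not tested.

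Some peaks also held sequence present far beyond the POTE blocks. Windows found at least 100 times made up 62.1% of peak 493, 29.8% of peak 491, 26.1% of peak 492 and 6.74% of peak 487, and were absent from the other 13 POTEC peaks. A blastn search found 14304 copies of peak 493 and 2930 of peak 491, but only 7 of peak 492 and 4 of peak 487. The median 50-base window of peak 493 occurred 499 times in the genome. The highest identity among the copies of peak 493 was 98.6%, shared by 32 places. Copies of peaks 491 and 493 also overlapped listed peaks of other genes on chromosome 12. A copy of peak 491 overlapped a peak of LOC100288798 by 456 bp and another overlapped a peak of LOC100507065 by 629 bp. A copy of peak 493 overlapped a further LOC100507065 peak by 93 bp.

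Base composition also differed among the peaks. The median GC content was 37.6% in POTEC peaks, from 31.4% in peak 494 to 49.0% in the downstream peak, and 42.0% in peaks of other genes. Among the 15 genes with at least 5 listed peaks, those nearest to POTEC in the share of peaks with a copy were LOC100507065, with 5 of 6, LOC100288798, with 2 of 5, and HMGA2, with 1 of 42. The other 11 genes had no peak with a copy.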

How the data were processed

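RIP-seq was analysed from 1 list of 368 peaks made from an anti-FLAG RIP library and an input library. The authors trimmed the reads, removed rRNA sequences, aligned the rest to hg19 (TopHat2 2.0.13 in the processing notes of the labels), called peaks with RIPSeeker at their error-rate threshold and annotated them. How the input entered the calling and how reads with several matches were treated is not given in the sources used here. The deposited list holds positions counted from 1, region classes, gene names, and columns for transcript and type.

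Peak sequences were read from hg19 (84 sequences) and aligned to it with minimap2 2.31 (k 15, w 5, N 500, p 0.1). The N setting limits the places kept for a peak, so its counts of copies are lower bounds for repeated peaks. Peaks of POTE genes and the peak before them were also searched with blastn 2.17.0 (identity at least 85%, E-value 1e-10), and segments of 1 place were chained. A block of copies joined places of different peaks within 150000 bp. Peaks with over 20 places at 85% identity were kept in a block only within 2000 bp of where the nearest peak put them. Exact windows were counted on both strands with numba 0.67.0 and numpy 2.4.6. Genes came from GENCODE release 44 lifted to GRCh37. The window counter and the aligner settings were checked on simulated data.

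Named genes were POTEC, all genes with a symbol beginning with POTE, genes overlapped by POTEC peaks or their copies, the 3 genes with at least 5 peaks that had the largest share with a copy, and genes whose listed peaks overlapped a copy. Sequences were to be shown for single-bin POTEC peaks in an exon, without a copy, or with the most copies. No single-bin peak lacked a copy, and the sequences of the others are not reported here. The bases shared with the POTED peak were added after seeing the data. A rule that kept repeated peaks in a block only near their neighbours was also set after seeing the data. The members and lists were chosen with earlier results of these data known. Alternatives were other identity, cover, window, overlap and gap limits, blastn, and assembled chromosomes only.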

Additional observations from a re-analysis of the deposited data

How the results depend on the processing

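The number of POTEC peaks with a copy was 16 with blastn, on assembled chromosomes only, and with 50% or 95% of the peak covered. It was 17 at 90% identity and 10 at 98% identity. For all listed peaks the count fell from 50 to 29 at 98% identity, and was between 47 and 61 at 90% identity and with 50% or 95% of the peak covered. Neither blastn nor assembled chromosomes only was run on the whole list. The median share of windows of a POTEC peak found once was 28% with 36 bases, 60.4% with 75 bases and 75.3% with 100 bases, since longer windows are repeated less often. The number of POTEC peaks overlapping a gene fell from 4 to 2 with pseudogenes left out, and to 2 where at least 50% of the peak had to overlap. Joining gaps of up to 5000 bp gave 4 clusters instead of 12, and joining only single-bin gaps gave 14. No paired analysis was possible because RIP and input are represented by a single library each. The list carries no counts, so depth sets a limit that could not be examined.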

Other observations

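Other listed peaks with repeated sequence, named after their values were seen, were spread over several chromosomes. In all 17 genes had a peak with under 50% of 50-base windows found once, POTEC among them with 12 such peaks. The single peaks of LOC100190986, NPIPB5 and PKD1P1 on chromosome 16 had 0% of windows found once. On chromosome 21 the single peaks of BAGE2 and TEKT4P2 had 40.8% and 25.5%. All 4 peaks of LOC400927 on chromosome 22 had a copy, although 1 of them had under 50% of windows found once.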
